A study of Mus musculus with 16 samples.

Results

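Ccl24 and 8 further genes of the type 2 macrophage programme were followed through a bulk RNA-seq series of irradiated, tumour-bearing mouse lungs. The 9 genes are Ccl24, Ccl11, Ccl8, Retnla, Chil3, Mrc1, Mgl2, Il4ra and Il13ra1, out of 30095 in the expression table, and all 9 were found by symbol. They were chosen by values already seen in these data: Ccl24 was selected on its rise at 8 Gy and Retnla on its rise at 4 Gy, and the others were added as genes of the same programme with earlier results known. The differences of both doses from 0 Gy are therefore given as a description, with no test. So is 8 Gy against 4 Gy for Ccl24 and Retnla, since it holds the libraries that chose them. For the other tested genes that step was tested, and for all of them the antibody and its interaction with dose. Of the 9, 8 passed the filter on low values (1 CPM, reads scaled to the total of the library, or more in at least 2 libraries) and Ccl11 did not.

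Every library came from lungs of C57BL/6 mice carrying HKP1, a mouse lung adenocarcinoma line, so tumour cells, resident lung cells and infiltrating leukocytes were measured together. Each was a pool of 3 to 4 mice taken 24 to 48 h after radiotherapy. The lungs received 0, 4 or 8 Gy with either IgG or an antibody against PD-1, a checkpoint receptor of T cells: IgG with 0 Gy (n = 3), 4 Gy (n = 2) and 8 Gy (n = 3), and anti-PD-1 with 0 Gy (n = 2), 4 Gy (n = 3) and 8 Gy (n = 3). The design crosses radiation dose with checkpoint blockade in such lungs. In bulk tissue, fewer cells of a type and less RNA per cell cannot be told apart.

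In type 2 immunity, interleukin-4 and interleukin-13 bind receptors built on the chain encoded by Il4ra, and the transcription factor STAT6 carries the signal to the nucleus. Macrophages that receive it take up a programme of tissue repair and helminth defence, with secreted proteins such as those of Retnla and Chil3, lectin receptors such as those of Mrc1 and Mgl2, and chemokines. The eotaxins, encoded in these data by Ccl24 and Ccl11, attract eosinophils through the receptor CCR3. In the lung, alveolar macrophages produce much of the Chil3 product at rest, and lung epithelium is a known source of the Retnla product.

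The worth of 1 read ran from 0.0155 to 0.0418 CPM over the 16 libraries. In the group given 4 Gy with anti-PD-1, replicates 2 and 3 are called the 2 outlying libraries here: their first principal component scores were -81.5 and -98.3, with all others between -46.8 and 51.9. They lacked reads for 6174 and 5406 genes, the others for 2345 to 3943. The S numbers in the library names run from 13 to 17 at 0 Gy, 26 to 30 at 4 Gy and 31 to 36 at 8 Gy, with IgG first within each dose. The labels do not say what these numbers mark, and anything that follows them cannot be told apart from dose or antibody. Whether the pools within a group hold different mice is not stated in the labels, and p-values then cover only the spread among the libraries. All macrophage marker genes fixed for the tissue check, 7 of 7, were present in every group, with a summed level of 3145 to 8383 CPM.

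STAT6 is known to bind a palindrome with 4 bases between its arms, TTCNNNNGAA, and STAT proteins in general one with 3, TTCNNNGAA. Both read alike on the 2 strands and cannot start at the same base. The promoters of 7 of the 9 genes were in the RefSeq table (GRCm38.p6, 250 bases before to 50 after the start), all but those of Ccl24 and Ccl11. Of these 7, the Retnla promoter held the 4-base form, 145 bases before the start, and the Chil3 promoter held the 3-base form, 172 bases before it. The other 5 (Ccl8, Mrc1, Mgl2, Il4ra and Il13ra1) held neither. Of 32851 mouse promoters of that length, 6.95% held the 4-base form and 8.3% the 3-base form. The stretches from 250 to 101 bases before the start of these genes are shown because they hold the 2 matches. The match is in capitals and each is read 5′ to 3′ on the gene's own strand.
Retnla, chr16:48842359-48842508, plus strand: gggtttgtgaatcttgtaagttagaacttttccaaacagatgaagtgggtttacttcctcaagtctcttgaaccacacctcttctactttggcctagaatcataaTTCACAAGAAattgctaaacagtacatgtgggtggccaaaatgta
Chil3, chr3:106167665-106167814, minus strand: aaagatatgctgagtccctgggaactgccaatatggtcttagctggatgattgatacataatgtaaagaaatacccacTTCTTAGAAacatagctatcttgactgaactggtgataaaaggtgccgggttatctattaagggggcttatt
A match is a description of the letters and not a binding site.

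The 9 genes stood at very different levels. Per kilobase of exon, averaged over the 16 libraries, Chil3 was highest at 424 CPM per kb, followed by Retnla at 130 and Ccl8 at 74.6. Il4ra (34.96), Ccl24 (33.2), Mgl2 (25.7) and Mrc1 (24.2) lay close together, then came Il13ra1 at 12.5 and Ccl11 at 0.466 CPM per kb. They also differed in how far they moved. The highest library was 25.4 times the lowest for Ccl24, 19.9 times for Retnla, 6.24 times for Ccl8 and 1.35 times for Il4ra.

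**Figure D1:**
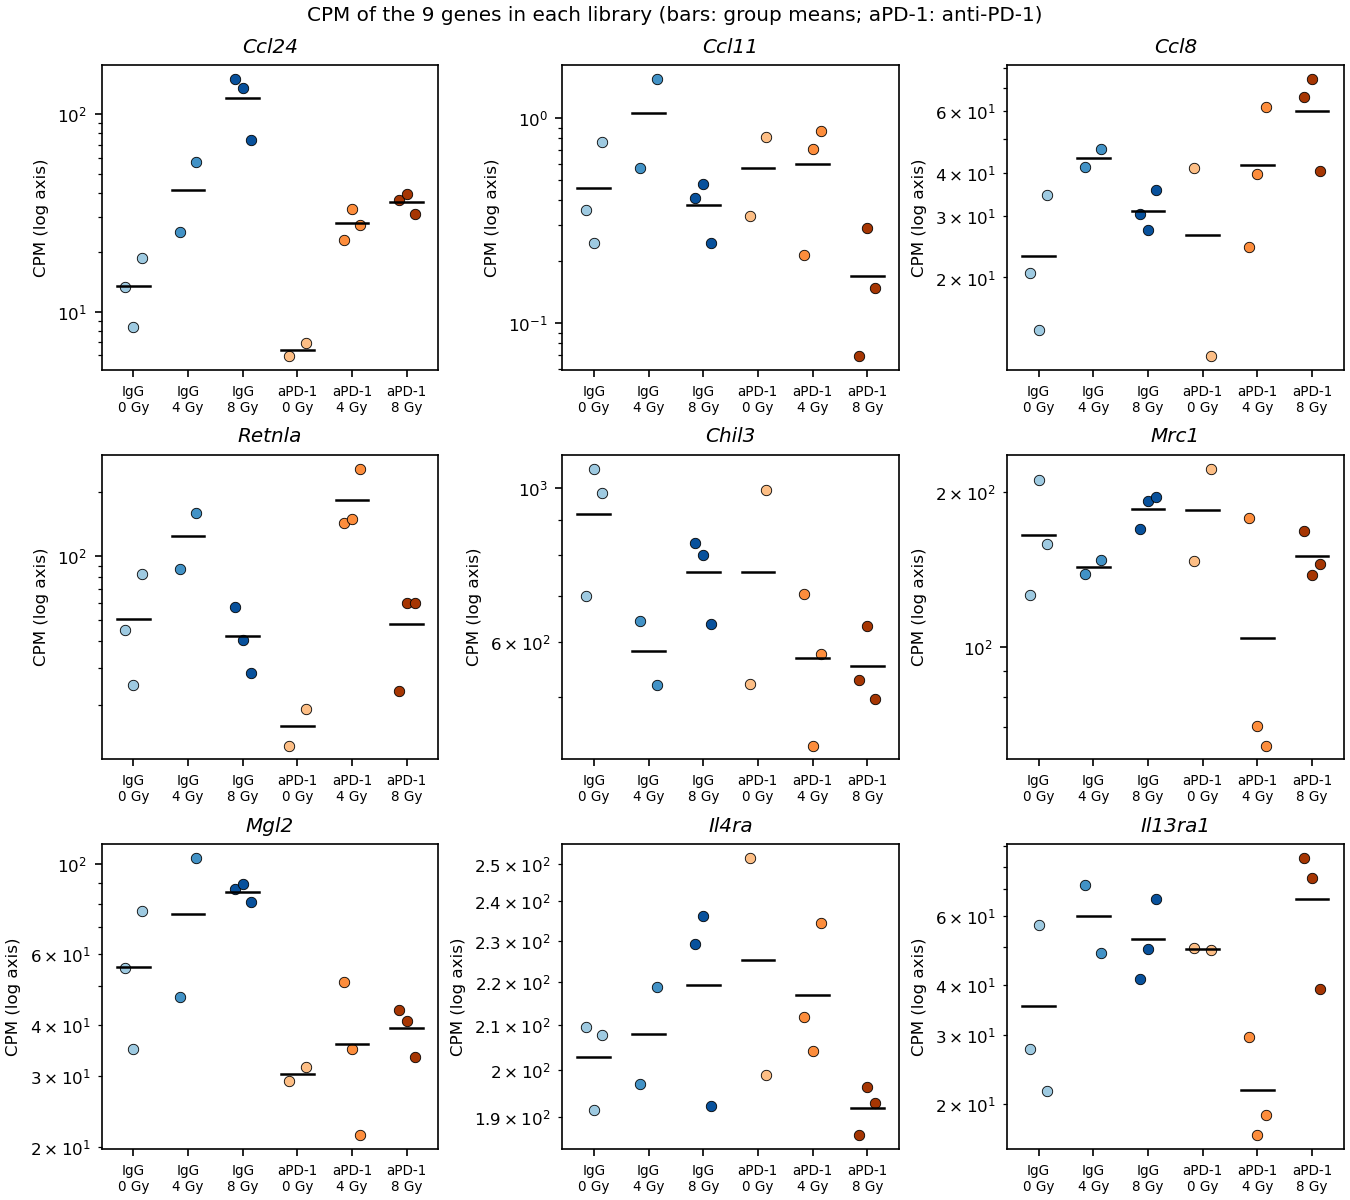
CPM of the 9 genes on log axes whose ranges differ between panels, 1 point per library and a bar at each group mean, for IgG (blue) and anti-PD-1 (orange, labelled aPD-1) at 0, 4 and 8 Gy. Ccl24 is highest in the IgG 8 Gy libraries, Retnla in the 4 Gy libraries of both antibodies, and Il4ra stays between 186 and 252 CPM.

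Ccl24 encodes eotaxin-2, which attracts eosinophils (mm10, chromosome 5, 135569937 to 135573049, minus strand). With IgG it stood at 13.3, 8.34 and 18.7 CPM at 0 Gy, at 25.3 and 57.5 CPM at 4 Gy, and at 151, 137 and 74.1 CPM at 8 Gy. With anti-PD-1 it stood at 5.95 and 6.89 CPM at 0 Gy, at 23.1, 33.2 and 27.5 CPM at 4 Gy, and at 36.6, 39.4 and 31.1 CPM at 8 Gy. Every irradiated library lay above every unirradiated one, and the 3 IgG 8 Gy libraries lay above all 13 others.

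In order of group means, Ccl24 was highest in IgG 8 Gy (120 ± 40.8 CPM, SD, n = 3). IgG 4 Gy (41.4 ± 22.7, n = 2), anti-PD-1 8 Gy (35.7 ± 4.19, n = 3) and anti-PD-1 4 Gy (27.95 ± 5.07, n = 3) followed, and each of these overlapped the next. IgG 0 Gy (13.4 ± 5.2, n = 3) and anti-PD-1 0 Gy (6.42 ± 0.669, n = 2) were lowest and overlapped neither each other nor the irradiated groups. On the log2(CPM + 0.5) scale, on which all differences below are given with their SE, the rise over both antibodies was 2.75 ± 0.25 at 8 Gy and 1.79 ± 0.26 at 4 Gy. Ccl24 was the only 1 of the 8 tested genes to be called higher or to have no overlap between 8 and 0 Gy. Over all 17546 genes tested, 4.68% were called higher and 16.1% lower in that comparison and 6.45% had no overlap in either direction, and as this contrast chose the gene nothing is read from the count.

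Ccl24 was also higher at 8 Gy than at 4 Gy, by 0.97 ± 0.25, a value that holds the 8 Gy libraries by which the gene was chosen. With IgG the 3 libraries at 8 Gy lay above both at 4 Gy, whereas with anti-PD-1 the ranges overlapped (31.1 to 39.4 and 23.1 to 33.2 CPM). Such separation was common. With IgG 21.8% of all genes lay wholly above and 27.3% wholly below at this step, and with anti-PD-1 29.5% and 23.6%. For Ccl24 the interaction of antibody with this dose step was -1.22 ± 0.50 and did not pass (limma, adjusted p = 0.139). Without IgG 4 Gy replicate 1 the difference was 0.68.

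Group means of Ccl24 were lower with anti-PD-1 than with IgG at each of the 3 doses, but the difference did not pass the test. Over all doses it was -1.03 ± 0.21 (limma, adjusted p = 0.0545), and at 8 Gy alone, where the 3 anti-PD-1 libraries lay below the 3 IgG libraries, -1.68 ± 0.33 (limma, adjusted p = 0.117). At 0 Gy it was -0.94 ± 0.37 (limma, adjusted p = 0.380), again without overlap. The 4 Gy value was -0.46 ± 0.37 (limma, adjusted p = 0.377), and there the libraries overlapped. Over all doses, 0.234% of genes were called in either direction, at 8 Gy 0.00570% and at 0 Gy 0.274%. Ranges without overlap were common, in 23.5% of genes at 8 Gy and 22.4% at 0 Gy.

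Levels of some myeloid genes moved beside Ccl24, and others did not. The 6 monocyte markers summed to 336 to 403 CPM at 0 Gy, 291 to 459 CPM at 4 Gy and 440 to 669 CPM at 8 Gy. At 8 against 0 Gy, 4 of these 6 were called higher, as were 4 of 7 general and 5 of 10 interstitial macrophage markers. None of these was called lower. Of 10 alveolar macrophage markers 0 were higher and 3 lower, of 6 dendritic cell markers 0 and 1, and of 5 tested neutrophil markers 1 and 0. Over all genes, 4.68% were called higher and 16.1% lower. The 7 general macrophage markers summed to 3145 to 6913, 4889 to 8383 and 4960 to 7122 CPM, with the 2 lowest sums in the anti-PD-1 0 Gy group (3145 and 3923 CPM), where Ccl24 was lowest too. Most of the macrophage sum was Lyz2, with a median of 4313 CPM at 0 Gy beside 284 for Csf1r and 225 for Cd68. A share of that sum is therefore mainly a ratio to Lyz2 and not a level per macrophage. As such a share, computed after the data were seen, Ccl24 averaged 0.202% at 0 Gy, 0.526% at 4 Gy and 1.24% at 8 Gy. The ranges of that share were 0.121 to 0.331%, 0.370 to 0.686% and 0.628 to 2.29%. So the share of 0 Gy libraries lay below that of every irradiated library, while the part of monocyte or macrophage number in the rise was not tested.

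Ccl11, the gene of eotaxin-1, lay on chromosome 11 (mm10, 82057823 to 82062955, plus strand) and had a low level. It ranged from 0.0691 CPM, or 4 reads, in an anti-PD-1 8 Gy library to 1.55 CPM, or 100 reads, in an IgG 4 Gy library. Only that library reached 1 CPM, so the gene was not tested. At 8 Gy it stood at 0.245 to 0.478 CPM with IgG and 0.0691 to 0.290 CPM with anti-PD-1, and at 0 Gy at 0.245 to 0.812 CPM over both antibodies. The highest Ccl24 levels, in IgG 8 Gy, thus came with Ccl11 under 0.5 CPM.

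Ccr3, the eotaxin receptor gene of eosinophils, was named for its role after its values were seen. It rose at 8 Gy over 0 Gy, by 1.63 ± 0.43 (limma, adjusted p = 0.0168), from a mean of 1.12 to 5.16 CPM. The 3 IgG 8 Gy libraries stood at 8.22 to 9.76 CPM and the 3 anti-PD-1 8 Gy libraries at 0.656 to 2.41 CPM. Genes of eosinophil granules were low: Epx reached at most 0.324 CPM and Prg3 0.162 CPM, and neither passed the filter, while Prg2, which did, reached 2.91 CPM. The 8 eosinophil markers together, which include genes of other cells such as Siglecf, summed to 40.1 to 283 CPM at 0 Gy and 54.6 to 212 CPM at 8 Gy. Of the 6 tested, 1 (Ccr3) was called higher, beside 4.68% of all genes.

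Ccl8 encodes a chemokine of monocytes and of type 2 T cells (mm10, chromosome 11, 82115185 to 82116799, plus strand). Its level was 20.5, 14.1 and 34.6 CPM with IgG and 41.2 and 11.9 CPM with anti-PD-1 at 0 Gy. At 4 Gy it stood at 41.4 and 46.6 CPM with IgG and at 24.5, 39.7 and 61.7 CPM with anti-PD-1. At 8 Gy the IgG libraries held 30.4, 27.4 and 35.6 CPM and the anti-PD-1 libraries 65.9, 74.2 and 40.4 CPM. The doses overlapped, and all 6 groups formed 1 chain in which each overlapped its neighbour in order of the mean.

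The differences of Ccl8 from 0 Gy were 0.94 ± 0.32 at 8 Gy and 0.91 ± 0.34 at 4 Gy. Between the 2 doses Ccl8 did not pass, at 0.03 ± 0.32 (limma, adjusted p = 0.944). At 8 Gy it was higher with anti-PD-1 in 3 of 3 libraries, the opposite order to Ccl24, by 0.90 ± 0.43, which did not pass the test (limma, adjusted p = 0.407). Over all doses the antibody difference was 0.26 ± 0.27 (limma, adjusted p = 0.615).

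Ccl8 lies in a cluster of chemokine genes on chromosome 11 with Ccl7, Ccl11, Ccl12 and Ccl1, which were looked at as its neighbours. Ccl12, 11.8 kb before Ccl8, rose by 0.80 ± 0.15 at 8 Gy and 0.83 ± 0.16 at 4 Gy (limma, adjusted p = 0.00299 and 0.0114). Ccl1, 59.9 kb after it, rose by 1.19 ± 0.30 and 1.17 ± 0.32 (limma, adjusted p = 0.0139 and 0.0286), and Ccl7 by 0.82 ± 0.27 and 0.93 ± 0.29 (limma, adjusted p = 0.0471 and 0.0418). None of these 3 passed between 8 and 4 Gy, where their differences ran from -0.11 to 0.02. Their 4 Gy calls did not hold without the 2 outlying libraries, a fit that leaves 1 anti-PD-1 library at 4 Gy. The differences were then 0.93 ± 0.19 for Ccl12, 0.73 ± 0.33 for Ccl1 and 0.60 ± 0.24 for Ccl7. The neighbours of Ccl24 did not follow it: Hip1 differed by 0.19 ± 0.12 at 8 Gy, and Rhbdd2 and Por fell by 0.50 and 0.53.

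Retnla encodes a secreted resistin-like protein (mm10, chromosome 16, 48842551 to 48844461, plus strand). At 0 Gy it stood at 45.0, 24.9 and 82.5 CPM with IgG and at 12.9 and 19.2 CPM with anti-PD-1. At 4 Gy it stood at 87.2 and 160 CPM with IgG and at 143, 148 and 257 CPM with anti-PD-1, and at 8 Gy at 57.8, 40.6 and 28.3 CPM with IgG and at 23.4, 60.1 and 60.4 CPM with anti-PD-1. All 5 libraries at 4 Gy lay above all 11 others, and 0 and 8 Gy overlapped.

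Retnla was higher at 4 Gy than at 0 Gy by 2.41 ± 0.36 and at 8 Gy by 0.65 ± 0.34. With Ccl24 it was 1 of the 2 tested members that were called higher, or that did not overlap, between 4 and 0 Gy, where 5.33% of all genes were called higher, 12.2% lower and 5.96% had no overlap. As the contrast chose Retnla, nothing is read from this. At 8 Gy Retnla was lower than at 4 Gy, the log2 difference being -1.76 ± 0.34, with means of 45.1 and 159 CPM. This value holds the 4 Gy libraries by which the gene was chosen, and its sign is opposite to that of Ccl24, chosen at 8 Gy. Without the 2 outlying libraries it was -1.61 ± 0.42.

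Among the other 6 tested genes, none was called between 8 and 4 Gy with limma, or with limma without trend and robust fitting. An unadjusted p under 0.05 was found for 2 of the 6, against 46.3% of all genes. Over all genes 34.3% were called in either direction, and 12.7% had no overlap. The 2 were Il13ra1 (0.68 ± 0.26, limma, adjusted p = 0.0600) and Mrc1 (0.53 ± 0.23, limma, adjusted p = 0.0877). Il13ra1 passed when only the compared groups were fitted (limma, adjusted p = 0.0331). Without the 2 outlying libraries both were smaller, Il13ra1 at 0.44 ± 0.32 and Mrc1 at 0.061 ± 0.17.

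In unirradiated lungs Retnla was lower with anti-PD-1 in 2 of 2 libraries, by -1.50 ± 0.50 (limma, adjusted p = 0.279). The interaction of antibody with dose was 2.07 ± 0.71 for 4 Gy against 0 Gy (limma, adjusted p = 0.0698) and 1.61 ± 0.68 for 8 Gy against 0 Gy (limma, adjusted p = 0.997), so neither passed.

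Markers of lung epithelium and endothelium had their highest mean sums at 4 Gy, as Retnla did, but did not follow it in every group. Retnla was lower in anti-PD-1 0 Gy (12.9 and 19.2 CPM) than in IgG 8 Gy (28.3 to 57.8 CPM). Club cell sums went the other way there (2709 to 4854 against 747 to 1168 CPM), as did those of alveolar type 2, alveolar type 1 and ciliated cells. Endothelial sums overlapped between these groups. The 5 club cell markers summed to 1095 to 4854 CPM at 0 Gy, 5420 to 18315 CPM at 4 Gy and 747 to 5600 CPM at 8 Gy. The 5 alveolar type 2 markers summed to 891 to 4962, 5122 to 12580 and 1351 to 2730 CPM, and the 5 alveolar type 1 markers to 129 to 402, 551 to 912 and 91.2 to 314 CPM. In each of these 3 lists the 4 Gy libraries did not overlap the 0 Gy or the 8 Gy libraries except where club cells at 4 and 8 Gy did (5420 against 5600 CPM). The 4 endothelial markers summed to 125 to 343, 290 to 530 and 115 to 233 CPM, with overlap between 0 and 4 Gy. The 4 ciliated cell markers summed to 26.1 to 156, 98.8 to 376 and 49.4 to 103 CPM, and 4 Gy overlapped both 0 and 8 Gy. The part of these cells in the level of Retnla was not tested. Retnlg, its paralog 28.2 kb downstream and a gene of neutrophils, went the other way and fell at 4 Gy by 1.17 ± 0.29 on the log2 scale (log2 difference -1.17, limma, adjusted p = 0.0216), a call lost without the 2 outlying libraries (-0.95 ± 0.33, limma, adjusted p = 0.161).

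Chil3 encodes the chitinase-like protein Ym1 (mm10, chromosome 3, 106147554 to 106167564, minus strand) and was the most abundant of the 9. It stood at 700, 1066 and 982 CPM with IgG and 523 and 991 CPM with anti-PD-1 at 0 Gy. It lay between 426 and 704 CPM at 4 Gy and between 498 and 832 CPM at 8 Gy, over both antibodies. The differences from 0 Gy were -0.32 ± 0.18 at 8 Gy and -0.50 ± 0.19 at 4 Gy, with overlap in both. Between 8 and 4 Gy (0.18 ± 0.18, limma, adjusted p = 0.460) and between antibodies over all doses (-0.28 ± 0.15, limma, adjusted p = 0.339) it did not pass. The 10 alveolar macrophage markers summed to 366 to 725 CPM at 0 Gy, 439 to 714 CPM at 4 Gy and 317 to 518 CPM at 8 Gy. Chil3 has near-identical relatives (Chil4 among them, at most 1.00 CPM), so reads may be shared.

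Mrc1, the mannose receptor gene (mm10, chromosome 2, 14229392 to 14332057, plus strand), overlaps the microRNA gene Mir511 on the same strand. It stood at 126, 211 and 159 CPM with IgG and 147 and 222 CPM with anti-PD-1 at 0 Gy, and between 138 and 196 CPM in all 6 libraries at 8 Gy. At 4 Gy it stood at 139 and 148 CPM with IgG and at 178, 70.4 and 64.4 CPM with anti-PD-1. The low values are those of the 2 outlying libraries. The differences from 0 Gy were -0.036 ± 0.23 at 8 Gy and -0.56 ± 0.24 at 4 Gy, and the latter was -0.097 ± 0.18 without those 2 libraries.

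Mgl2 encodes a galactose-type lectin of macrophages and dendritic cells (mm10, chromosome 11, 70130329 to 70137550, plus strand). Without radiation it stood at 55.4, 34.8 and 76.6 CPM with IgG and at 29.1 and 31.5 CPM with anti-PD-1. The 4 Gy libraries held 47.1 and 104 CPM with IgG and 51.3, 34.97 and 21.4 CPM with anti-PD-1. Those at 8 Gy held 86.9, 89.4 and 80.6 CPM with IgG and 43.5, 41.0 and 33.3 CPM with anti-PD-1. The 3 IgG groups were the 3 highest by mean, and at 0 and 8 Gy the antibodies did not overlap.

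The antibody difference of Mgl2 was close to that of Ccl24 in size and likewise did not pass: -0.99 ± 0.21 over all doses (limma, adjusted p = 0.0545). By dose it was -0.80 ± 0.37 at 0 Gy, -1.04 ± 0.37 at 4 Gy and -1.12 ± 0.33 at 8 Gy (limma, adjusted p = 0.464, 0.0660 and 0.231). Without the 2 outlying libraries the 4 Gy value was -0.44 ± 0.44 (limma, adjusted p = 0.718) and that over all doses -0.79 ± 0.21 (limma, adjusted p = 0.256). The call depended on the setting: it passed at 8 Gy when only these 2 groups were fitted (limma, adjusted p = 0.0208) and over all doses with equal library medians (limma, adjusted p = 0.0496). Mgl2 differed from 0 Gy by 0.52 ± 0.25 at 8 Gy and 0.28 ± 0.26 at 4 Gy, and between 8 and 4 Gy by 0.25 ± 0.25 (limma, adjusted p = 0.452). Clec10a, its paralog 18.6 kb downstream, differed by -0.14 ± 0.17 and -0.10 ± 0.18 from 0 Gy and was not called. As the 2 are near-identical copies, reads may be split between them.

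Over all doses no member passed the antibody test with limma, and 2 of 8 (Ccl24 and Mgl2) had an unadjusted p under 0.05, against 19.1% of all genes. Limma without trend and robust fitting also called 0. At 8 Gy 0 of 8 passed with 2 under 0.05 unadjusted, against 12.5% of all genes, and at 0 Gy 0 of 8 with 3 under it, against 10.7%. The interaction of antibody with dose called 0 of 8 for 8 Gy against 0 Gy, with 1 under 0.05 unadjusted against 3.41% of all genes. It called 0 of 8 for 8 Gy against 4 Gy, with 2 under it against 27.4%, and 0% of all genes were called in either.

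Il4ra encodes the chain shared by the receptors of interleukin-4 and interleukin-13 (mm10, chromosome 7, 125552120 to 125579474, plus strand), and an antisense gene, Gm44876, overlaps it. It was the steadiest member: 191 to 252 CPM at 0 Gy, 197 to 234 CPM at 4 Gy and 186 to 236 CPM at 8 Gy. The differences from 0 Gy were -0.06 ± 0.09 at 8 Gy and -0.01 ± 0.09 at 4 Gy, and the sign of both turned under other scalings. Between 8 and 4 Gy it was -0.05 ± 0.09 (limma, adjusted p = 0.685). Its neighbour Il21r, the receptor gene of interleukin-21, rose at 8 Gy by 0.82 ± 0.21 (limma, adjusted p = 0.0153).

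Il13ra1 encodes the chain that pairs with the Il4ra product in cells outside the lymphoid lineage (mm10, chromosome X, 36112110 to 36171259, plus strand). At 0 Gy it stood at 27.6, 57.0 and 21.6 CPM with IgG and 49.6 and 49.1 CPM with anti-PD-1. At 4 Gy it stood at 71.7 and 48.4 CPM with IgG and at 29.6, 16.7 and 18.7 CPM with anti-PD-1, and at 8 Gy at 41.4, 49.5 and 66.0 CPM with IgG and at 84.0, 74.9 and 39.0 CPM with anti-PD-1. Only at 4 Gy did the antibodies not overlap, with all 3 anti-PD-1 libraries lower.

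At 4 Gy Il13ra1 was lower with anti-PD-1 by -1.47 ± 0.39 (limma, adjusted p = 0.0354), the only 1 of the 8 tested genes called there. In that comparison 15.5% of all genes were called, and 52.8% had no overlap. The interaction of antibody with 4 Gy against 0 Gy was -2.07 ± 0.56 (limma, adjusted p = 0.0444), again the only member called, among 9.08% of all genes. Both outlying libraries are in the low group, and without them it holds 1 library. The values were then -0.98 ± 0.53 and -1.58 ± 0.67, both smaller in size, and neither call held. Leaving out 1 library at a time, the first kept its call in 12 of 16 fits and the second in 3 of 16. Over both antibodies the differences from 0 Gy were 0.50 ± 0.26 at 8 Gy and -0.18 ± 0.28 at 4 Gy.

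**Figure D2:**
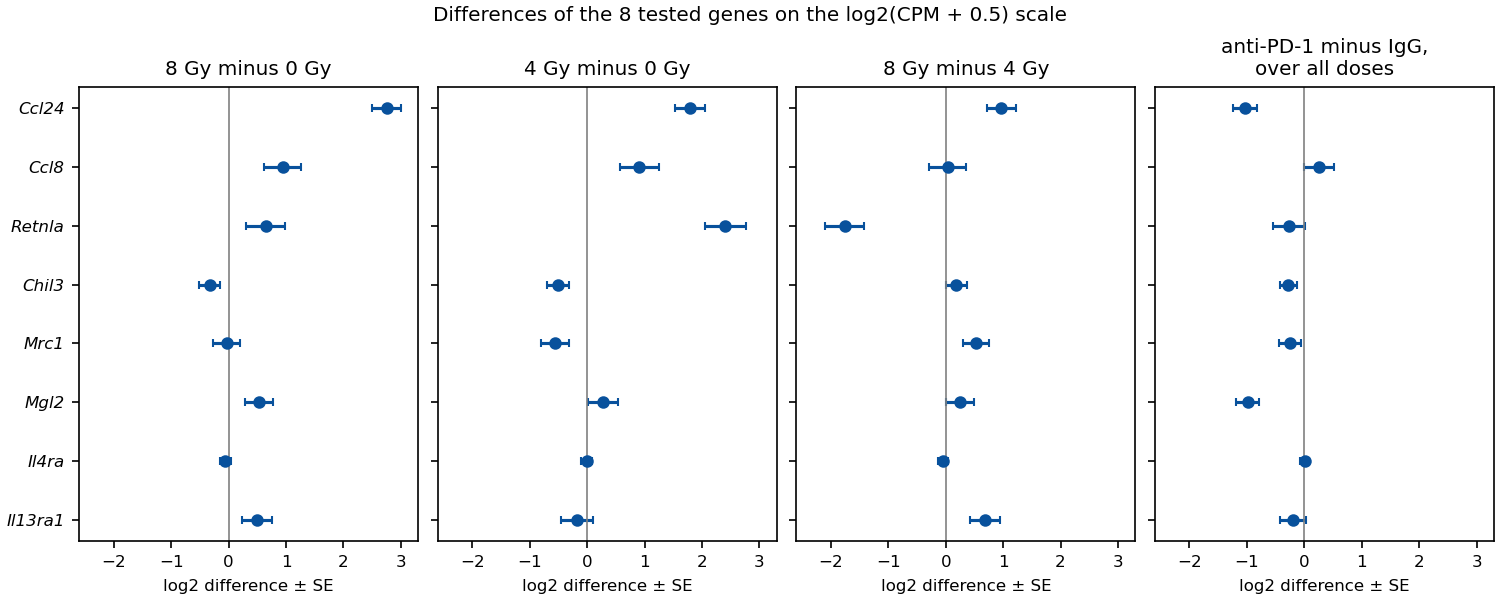
Log2 differences with their SE of the 8 tested genes for 4 comparisons, with a line at 0. At 8 Gy minus 4 Gy Ccl24 lies at 0.97 and Retnla at -1.76, and over all doses Ccl24 (-1.03) and Mgl2 (-0.99) lie lowest for anti-PD-1 minus IgG. The differences from 0 Gy chose Ccl24 and Retnla, and these and the 8 Gy minus 4 Gy values of both genes are a description.

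Median differences over the 8 tested genes were 0.51 at 8 Gy and 0.13 at 4 Gy against 0 Gy, beside -0.09 and -0.14 over all genes. Scaling to equal library medians or by quantiles moved these all-gene medians to 0.02 or 0.03 and to -0.03 or -0.05. Equal library medians turned the sign of both differences of Il4ra and of that of Mrc1 at 8 Gy. The genes did not move as 1 group across the 16 libraries. The highest correlation between 2 members was that of Ccl24 with Mgl2 (Pearson r = 0.65) and the lowest that of Ccl8 with Chil3 (r = -0.70), while Ccl24 with Retnla gave 0.33 and with Ccl8 0.39. With group means taken out, Ccl24 with Retnla gave 0.67, the highest of all pairs, and Ccl24 with Mgl2 0.61, while Retnla with Il13ra1 gave the lowest, -0.77. These describe 16 libraries that share doses and scaling.

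The wider pathway was followed in 3 lists of 49 genes outside the 9, drawn up with earlier results known. Of these, 47 were in the table and 40 were tested. At 8 Gy 15 of 40 rose and 0 fell against 0 Gy, where 4.68% of all genes rose and 16.1% fell, with a median of 0.46 beside -0.09 for all genes. The 15 became 9 to 18 on leaving out 1 library, with 9 without anti-PD-1 8 Gy replicate 1. At 4 Gy 6 rose and 3 fell, where 5.33% of all genes rose and 12.2% fell. The 4 Gy calls below did not hold without the 2 outlying libraries, nor without IgG 4 Gy replicate 2 alone. Each of these fits leaves 1 library in a group, so a lost call does not show that the difference went. Without the 2 outlying libraries Ccl12 was at 0.93, Pdcd1lg2 at 1.10 and Ccr8 at -0.81, near their values in all libraries. Socs1 (1.07), Ccl1 (0.73), Ccl7 (0.60), Cd163 (-0.87) and Il5ra (-0.40) were smaller in size. Between the doses 11 of 40 were higher at 8 Gy and 0 lower, where 2988 of the 17546 genes were higher and 3023 lower, and the 11 became 7 to 17 on leaving out 1 library.

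Over all doses 0 of the 40 were higher and 2 lower with anti-PD-1, where 0.234% of all genes were called, and the 2 became 0 in 12 of 16 fits that left out 1 library. At 4 Gy alone 1 was higher and 5 lower, where 15.5% of all genes were called, and the median was 0.19, of opposite sign to that over all doses (-0.19). Il33 (-0.89 ± 0.19, limma, adjusted p = 0.0314) and Il5ra (-1.15 ± 0.28, limma, adjusted p = 0.0319) were among the 5. None of the 40 was called at 4 Gy without the 2 outlying libraries, where both genes had an adjusted p of 0.647 with limma.

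The cytokines themselves were scarce. Il4 reached at most 0.929 CPM, Il13 1.10 CPM, Il5 0.250 CPM, Tslp 1.01 CPM, Il25 0.0668 CPM and the decoy receptor gene Il13ra2 0.179 CPM, and none of these 6 passed the filter. Il33, the alarmin of barrier tissue, was abundant and rose at 8 Gy by 1.12 ± 0.13 (limma, adjusted p = 0.000287), from a mean of 58.6 CPM (n = 5) to 131 CPM (n = 6). All 6 libraries at 8 Gy (97.0 to 177 CPM) lay above all at 0 Gy (41.5 to 65.7 CPM) and 4 Gy (41.0 to 92.1 CPM). In the list of 12 tested cytokine, receptor and signalling genes, 3 rose at 8 Gy (Il33 with Il2rg and Csf2rb, 2 receptor chains), beside 4.68% of all genes. At 4 Gy 1 fell, beside 12.2% of all genes. It was Il5ra, the eosinophil growth factor receptor gene, by 0.64 ± 0.20 on the log2 scale (log2 difference -0.64, limma, adjusted p = 0.0402). Stat6 stood at 125 to 188, 115 to 164 and 135 to 170 CPM at 0, 4 and 8 Gy and was not called.

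Of 21 tested genes listed here as raised in macrophages by interleukin-4 or interleukin-13, 8 rose at 8 Gy and 0 fell, beside 4.68% and 16.1% of all genes. At 4 Gy 4 rose and 1 (Cd163) fell, beside 5.33% and 12.2%. The median differences of the 21 were 0.53 and 0.00, and the difference of the counts was not tested. Whether these cytokines raise each listed gene was not tested, and in whole lung the levels are not those of macrophages alone. Arg1, the arginase gene, rose at 8 Gy by 1.77 ± 0.28 (limma, adjusted p = 0.00107), and its 8 Gy libraries (275 to 831 CPM) lay above all at 0 Gy (81.1 to 232 CPM) and 4 Gy (74.7 to 152 CPM). Pdcd1lg2, encoding the PD-1 ligand PD-L2, rose at both doses, by 1.60 ± 0.20 at 8 Gy and 1.24 ± 0.21 at 4 Gy (limma, adjusted p = 0.000367 and 0.00761), from 6.37 ± 2.83 to 18.4 ± 5.08 and 14.2 ± 2.89 CPM. Socs1, an inhibitor of cytokine signalling that interferons also raise, rose by 1.47 ± 0.36 and 1.70 ± 0.38 (limma, adjusted p = 0.0116 and 0.0164). The scavenger receptor gene Cd163 fell at 4 Gy by 1.31 ± 0.34 on the log2 scale (log2 difference -1.31, limma, adjusted p = 0.0254).

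The 2 pathway genes that were lower with anti-PD-1 over all doses were Ccl17 and Egr2. Ccl17, a chemokine of type 2 T cells, differed by -0.95 ± 0.17 (limma, adjusted p = 0.0379). It stood at 23.4 to 31.5 CPM in the IgG and 6.78 to 7.42 CPM in the anti-PD-1 libraries at 8 Gy, and at 14.3 to 17.1 and 12.7 to 12.9 CPM at 0 Gy. The 4 Gy ranges overlapped, at 11.0 to 25.0 CPM with IgG and 6.45 to 14.1 CPM with anti-PD-1. Egr2, a transcription factor gene, differed by -0.67 ± 0.12 (limma, adjusted p = 0.0451), with 19.9 to 30.3 CPM against 7.38 to 8.75 CPM at 0 Gy and 25.7 to 42.2 against 17.9 to 23.6 CPM at 8 Gy. At 4 Gy its difference had the other sign, 0.25 ± 0.22 (limma, adjusted p = 0.424), with 19.2 to 21.3 against 21.1 to 26.6 CPM. Without the 2 outlying libraries both calls over all doses were lost (limma, adjusted p = 0.237 for each).

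Of the 7 tested chemokine and chemokine receptor genes, 4 rose at 8 Gy, beside 4.68% of all genes. They were Ccl1 and Ccl12 of the cluster described with Ccl8, Ccr3, and the receptor gene Ccr2. Ccr2 went from 31.2 ± 10.9 to 72.2 ± 24.6 CPM, a difference of 1.23 ± 0.36 (limma, adjusted p = 0.0261). Ccr2 is itself 1 of the monocyte markers. Ccr8, a receptor gene of regulatory and type 2 T cells that binds the Ccl8 and Ccl1 products, fell at 4 Gy by 0.76 ± 0.20 on the log2 scale (log2 difference -0.76, limma, adjusted p = 0.0274).

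**Figure D3:**
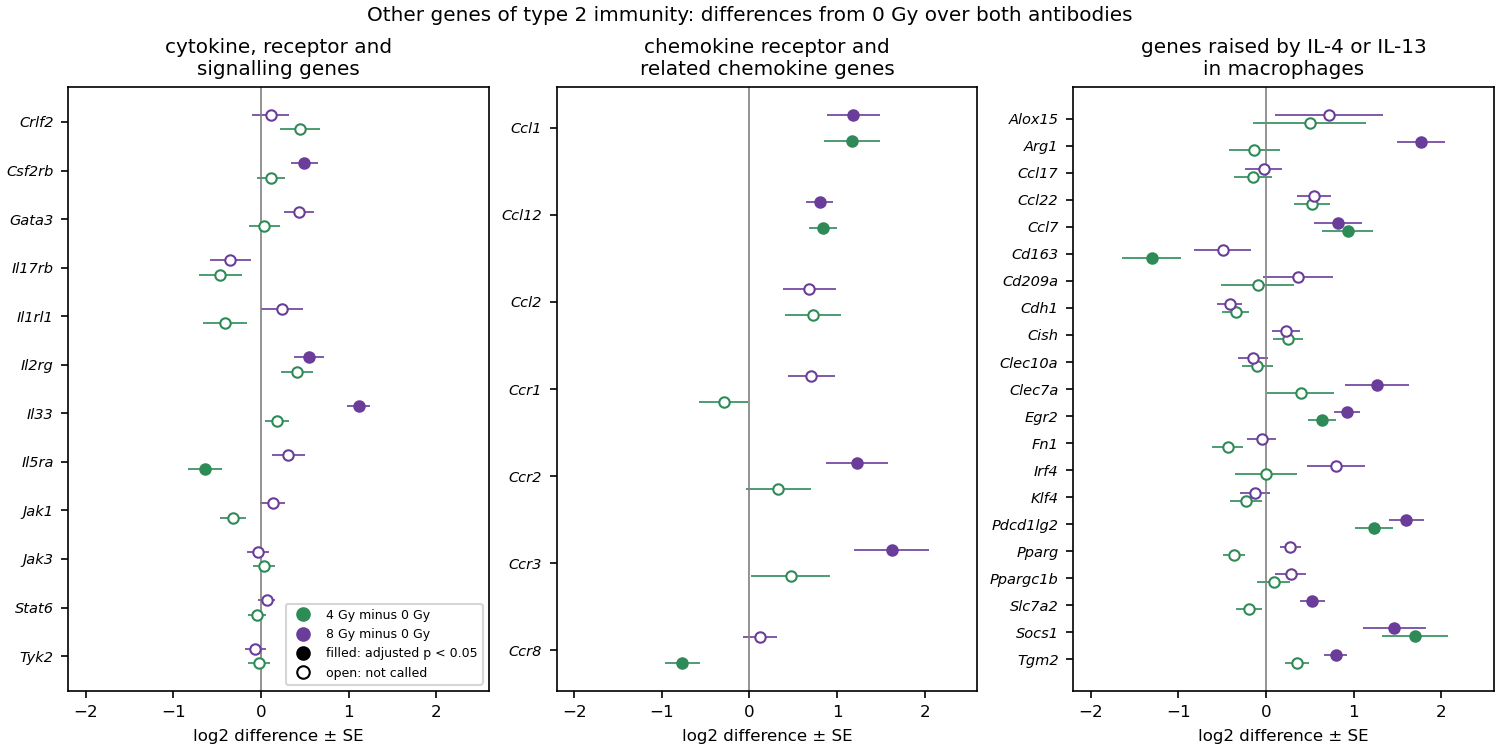
Log2 differences with their SE of the 40 tested pathway genes outside the 9, for 4 Gy minus 0 Gy (green) and 8 Gy minus 0 Gy (purple), filled where the adjusted p is under 0.05. The 2 comparisons share the 0 Gy libraries. Filled purple points lie right of 0 in all 15 cases, and filled green points on either side (6 and 3).

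The genes whose log2 values correlated most with Ccl24 over the 16 libraries, among 13154 candidates, were Tarm1, Slfn1, Oasl1, Rtp4, Pdcd1lg2, Fcgr1, Phf11b, Ly6c2, Ly86 and Sprr1a (Pearson r from 0.92 down to 0.88). Oasl1 and Rtp4 are known interferon-induced genes, Fcgr1 and Ly6c2 are monocyte markers, and Pdcd1lg2 is in the list of genes raised by interleukin-4. Their group means followed the same order at the ends, with IgG 8 Gy highest and anti-PD-1 0 Gy lowest, but over a smaller range: Tarm1, a receptor gene of myeloid cells, stood at 22.9 CPM in the first and 5.25 CPM in the last, Ly6c2 at 75.3 and 15.8 CPM.

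The 5 genes most like Retnla were Cxcl14, Icam1, Tmem221, Hist3h2a and Acoxl (r from 0.94 to 0.89). Cxcl14, a chemokine gene of epithelia, stood at 22.5 and 27.4 CPM in the 4 Gy groups and at 6.39 to 10.1 CPM in the other 4. Icam1, an adhesion molecule gene, stood at 305 and 304 CPM against 163 to 193 CPM. The 5 most like Ccl8 were Cxcl9, Ubd, Gbp2, H2-T22 and Igtp (r from 0.94 to 0.89), of which Cxcl9, Gbp2 and Igtp are known to be induced by interferon gamma. Cxcl9 stood at 529 CPM in anti-PD-1 8 Gy, its highest group as for Ccl8, and at 146 CPM in IgG 0 Gy, its lowest. None of the 20 genes named for the 3 members was shared between them. The correlations describe libraries that share dose, depth and scaling, and carry no test.

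**Figure D4:**
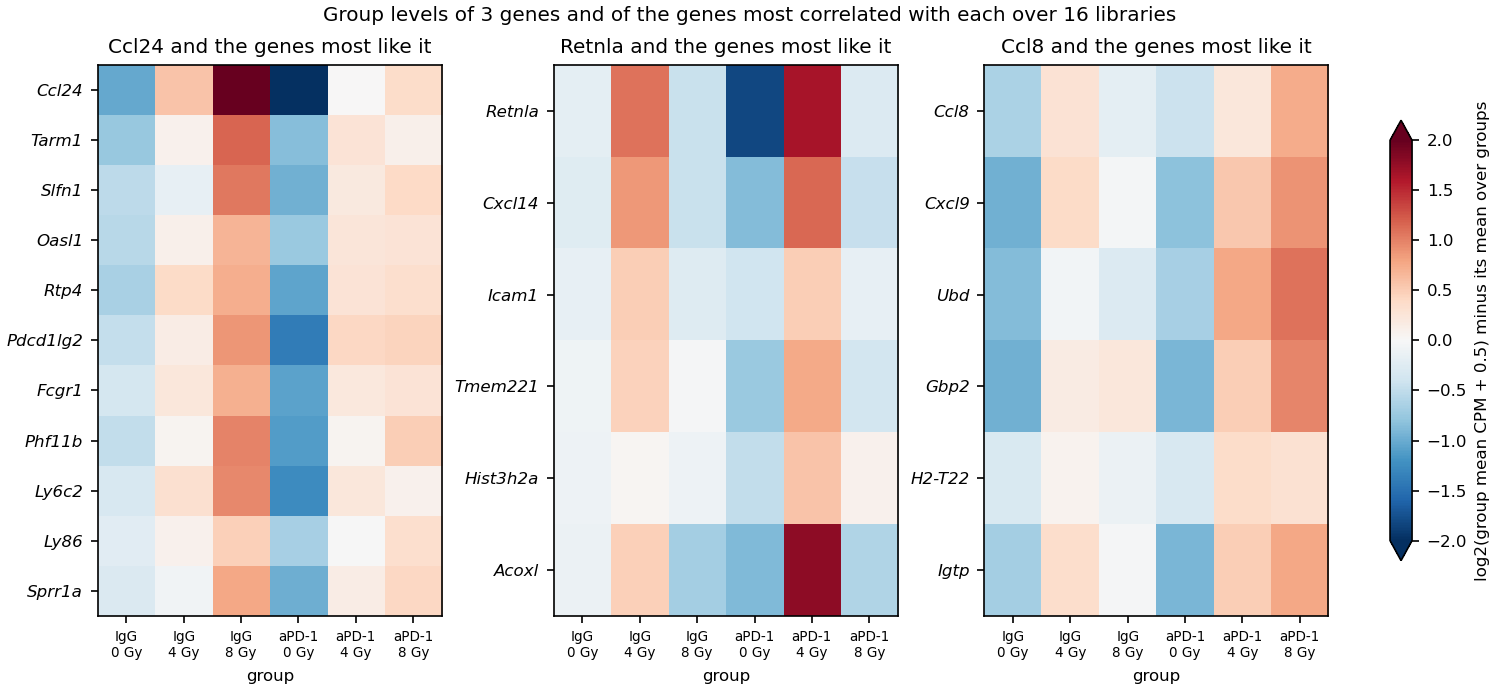
Group levels of Ccl24, Retnla and Ccl8 (top rows) and of the genes most correlated with each, as log2(group mean CPM + 0.5) minus the gene's mean over the 6 groups, red for higher and blue for lower, with the colour scale ending at 2 on either side. The Ccl24 set is reddest in IgG 8 Gy, the Retnla set in the 2 groups at 4 Gy except for Hist3h2a, which is higher in anti-PD-1 8 Gy than in IgG 4 Gy, and the Ccl8 set in anti-PD-1 8 Gy for 5 of its 6 genes including Ccl8.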

How the data were processed

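The members and lists were chosen with earlier results of these data known. The deposited table holds CPM for 30095 genes, to which the authors had added 1e-04. Per the submitters' processing notes, STAR and Partek were used on mm10; the sources used here name no versions, annotation or strandedness of the counting. Per the labels' protocols, TruSeq libraries were made from total RNA. Only 60.5 to 63.7% of values below 100 reads came out whole (tolerance 0.02), so counts were not rebuilt. A floor of 3 reads is 0.0465 to 0.125 CPM and covers counting error only. No 2 libraries held identical values.

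Values were tested as log2(CPM + 0.5), which understates changes of low genes, with limma 3.58.1 in R 4.3.3 (trend, robust) over 17546 genes reaching 1 CPM in 2 or more libraries. A single fit of the 6 group means had no replicate block, and p-values were adjusted by Benjamini-Hochberg at 0.05. It was tested on simulated data. CPM levels are ± SD. Lengths came from GENCODE M21 on mm10. Pathway genes were named by lowest p (up to 4 per direction among those called), and the 10 genes most correlated with Ccl24 and 5 each with Retnla and Ccl8. Neighbours and Ccr3, Ccr2, Ccl1, Ccl7, Il2rg, Csf2rb and Stat6 were named after their values were seen, and 1 listed gene is not reported here. Alternatives were scaling by quantiles or medians, pseudocounts of 0.1 and 1, no filter, the block, compared groups only, an additive model, limma without trend and robust, and leaving out libraries.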

Additional observations from a re-analysis of the deposited data

Results flagged for a closer look

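The interaction of antibody with 4 Gy against 0 Gy in Il13ra1, at -2.07 on the log2 scale (limma, adjusted p = 0.0444), was the single result in which a tested difference between the antibodies' responses passed. The gene stood lower at 4 Gy than at 0 Gy in all 3 anti-PD-1 libraries, and the call was lost without the 2 outlying libraries of that group (adjusted p = 0.327). Dixon's critical value marked no single library in 27 groups of 5 or 6 libraries, 1 per gene and dose, each with both antibodies. It looks for 1 library at a time and can miss 2 that lie low together. The 2 outlying libraries did so for Mrc1 at 4 Gy (70.4 and 64.4 CPM), so nothing is concluded from it.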

How the results depend on the processing

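Ccl24 and Retnla kept their direction for 8 against 4 Gy under every alternative run. The values near 0 turned sign. Equal library medians gave 0.070 for Mrc1 and 0.050 for Il4ra at 8 against 0 Gy and 0.11 for Il4ra at 4 against 0 Gy. Quantile normalization gave 0.028 for Il4ra at 4 against 0 Gy and -0.016 for Ccl8 at 8 against 4 Gy. The additive model gave 0.0053 for Mrc1 at 8 against 0 Gy and 0.016 for Il4ra at 4 against 0 Gy. Without the 2 outlying libraries Il13ra1 was 0.062 at 4 against 0 Gy and Mgl2 -0.050 at 8 against 4 Gy. Leaving out 1 library gave -0.19 to 0.11 for Mrc1 and -0.14 to 0.027 for Il4ra at 8 against 0 Gy. It gave -0.0065 to 0.56 for Mgl2, -0.091 to 0.078 for Il4ra and -0.32 to 0.020 for Il13ra1 at 4 against 0 Gy. It gave -0.13 to 0.20 for Ccl8 and -0.034 to 0.53 for Mgl2 at 8 against 4 Gy, and -0.032 to 0.55 for Ccl8 over all doses.

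The count of the 8 genes called moved as follows, and the cause was not tested. For 8 against 4 Gy, Ccl24 and Retnla are left out of the count, as their values are a description. Of the other tested genes the fit of compared groups called only Il13ra1, which the main fit did not call. Over all doses anti-PD-1 against IgG called 1 with equal medians, and at 8 Gy the fit of compared groups called 1. At 4 Gy it called 0 without the 2 outlying libraries. The interaction for 4 against 0 Gy called 0 with no filter, with limma without trend and robust, with compared groups only and without the outlying libraries, and that for 8 against 4 Gy called 1 with compared groups only. Leaving out 1 library gave 0 to 2 genes over all doses and 0 to 3 at 4 Gy. It gave 0 to 3 for the interaction of 4 against 0 Gy and 0 to 1 for that of 8 against 4 Gy. The difference between 8 and 4 Gy then ran from 0.54 to 0.85 for Il13ra1 and from 0.39 to 0.76 for Mrc1.

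No pairing of the libraries by replicate number was seen. Residuals of same-numbered libraries correlated above 0.1 in 4 of 15, 5 of 15 and 2 of 6 pairs, and 3 of 16 libraries correlated best with their own number. In groups of 2 the residuals mirror each other, so this check cannot exclude a pairing. With a replicate block the antibody comparison at 4 Gy called 0 and the interaction of 4 against 0 Gy 0, and Ccl8 was -0.028 at 8 against 4 Gy. Depth limits Ccl11, which had 4 to 100 reads.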
